A study of Mus musculus with 8 samples.

Results

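The genes described here encode potassium channels and their partner subunits, measured with expression arrays in mouse brain tissue labelled hippocampus. They were chosen by symbol: every probe set on the array whose single gene symbol begins with Kcn, 90 probe sets for 62 genes of the 12393 genes measured. Several probe sets measured 20 of the genes, and the one whose mean across the 8 arrays was highest then stood for the gene. The RefSeq gene table holds 94 protein-coding genes with such symbols, and the other 32 were not analysed here. The 62 genes comprise 20 voltage-gated channels, 6 calcium-activated or related channels, 13 inward rectifiers, 8 two-pore-domain channels and 15 auxiliary subunits.

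The series compared 4 normal mice with 4 mutant mice, with 1 array per animal. All mice were of the strain B6.C-H2-Kbm1/ByBir-Gusb. Normal mice were carriers (mps/+) and mutants had both copies (mps/mps), so the H2-Kbm1 background and at least 1 mps copy were common to all animals. The mps allele disables Gusb, the lysosomal enzyme beta-glucuronidase, and homozygous mice model mucopolysaccharidosis VII. Normals 1 to 4 were a female of 38.3 weeks, a male of 25.6 weeks, a male of 19.6 weeks and a female of 14.6 weeks. Mutants 1 to 4 were a female of 38.3 weeks, a male of 25.6 weeks, a second male of 25.6 weeks and a female of 19.6 weeks. Both genotypes came from matings of carrier siblings and shared cages.

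Potassium channels let potassium leave or enter a cell and so set its resting potential, end the action potential and limit how often a neuron can fire. Voltage-gated families (Kcna, Kcnc, Kcnd, Kcnh, Kcnq, Kcns) open on depolarisation, Kcnma and Kcnn channels respond to calcium, Kcnj channels pass current best inward, and Kcnk channels carry background leak. Auxiliary subunits (Kcnab, Kcnip, Kcne, Kcnmb) do not form a pore but change the gating or traffic of the pore subunits. In the hippocampus these channels shape dendritic excitability of pyramidal neurons, fast spiking of interneurons and potassium uptake by astrocytes.

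Values are log2 expression per probe set, so a difference of 1 is a doubling, and levels of different probe sets cannot be compared with each other. As a floor, 27 control probe sets for Bacillus subtilis transcripts, absent from the tissue, reached at most 3.72 in any array. Of the 62 genes, 46 lay above 3.72 in all 8 arrays, 9 in some arrays and 7 in no array. The last were Kcnd3, Kcne1, Kcne3, Kcnj2, Kcnj5, Kcnj14 and Kcnj15. They stayed within the range of absent controls, so no level can be given for them.

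The arrays differed from each other in ways that bear on neuronal genes. The Gusb probe set with the lower mean lay between 5.40 and 6.56 in normals and between 4.36 and 4.71 in mutants. It is not the one that stands for the gene by the rule above, whose values are not given here. Marker means for striatal medium spiny neurons (8 of 13 listed genes measured, all above the absent controls) were 9.77, 7.01, 9.77 and 9.06 in normals 1 to 4 and 7.21, 6.56, 6.29 and 6.76 in mutants 1 to 4. Normals 1, 3 and 4 were high in this list and the other 5 arrays low. Means for cortical and general excitatory neurons (5 of 8 genes, 3 above the absent controls in every array) were 5.25, 5.45, 7.53 and 6.51 in normals 1 to 4 and 6.15, 4.67, 7.80 and 4.55 in mutants 1 to 4, highest in mutant 3 and normal 3. Thalamic and habenular means (12 of 15 genes) ran from 7.06 to 9.62 and were highest in normal 2 and mutants 2 and 4. Choroid plexus and ependymal means (10 of 12 genes) were 7.76 and 6.99 in mutants 1 and 3 and 4.70 to 5.59 elsewhere. Of the 6 dentate granule markers measured (9 listed), 1 lay above the absent controls in every array, and their mean was 6.69 in mutant 3 against 4.76 to 5.66 in the other 7. Normal 1 stood apart in RNA quality. Its 3′ control probe sets for actin and Gapdh exceeded the 5′ ones by 3.58 on average, against 0.22 to 0.75 in the other arrays. In such bulk tissue, fewer cells of a type and less RNA per cell cannot be told apart.

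No potassium channel gene passed the test between mutant and normal mice. In limma, 0 of the 62 genes had an adjusted p under 0.05, beside 13 of all 12393 genes (0.105%), 12 of them higher (0.0968%) and 1 lower (0.00807%) in mutants. The smallest adjusted p among the 62 genes was 0.601. At an unadjusted p under 0.05, 5 of the 62 (8.06%) passed, where 6.53% of all genes did. Of these, 4 were lower in mutants (6.45%, against 2.48% of all genes) and 1 was higher (1.61%, against 4.05%). The groups did not overlap for 2 of the 62 genes (3.23%), against 3.88% of all genes, and both were lower in mutants (1.61% of all genes were, and 2.27% were higher). Regardless of direction, these shares lie near those of all genes.

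Mean differences of some size were more frequent than among all genes, though none passed the test. A change of at least 0.5 in log2 was seen in 15 of the 62 genes (24.2%), 11 lower and 4 higher in mutants, where 8.63% of all genes differed as much. By direction, 17.7% of the 62 against 3.36% of all genes were lower by that amount, and 6.45% against 5.28% higher. The mutant mean was the lower one in 39 of 62 genes (62.9%), against 47.5% of all genes. The median change was -0.08, beside 0.011 for all genes, and -0.17 over the 46 genes above the absent controls, beside 0.028 for all 9852 genes above them. Mutant means of some marker lists also lay lower or higher in the same arrays, and for several lists the groups overlapped. The striatal list, given by array above, had the largest median change of the lists (-2.30), with all 8 mutant means lower. There, normal 2 (7.01) lay within the mutant range. Oligodendrocyte and myelin means (8 of 12 genes, all above the absent controls) were 10.18 to 10.75 in normals and 9.03 to 9.81 in mutants, with all 8 mutant means lower (median -0.83). Inhibitory neuron means (11 of 11 genes, all above the absent controls) were 8.43 to 9.24 in normals and 7.63 to 8.97 in mutants, with 9 of 11 lower (median -0.81). Pan-neuronal means (10 of 10 genes, all above the absent controls) were 9.56 to 10.14 in normals and 9.60 to 10.05 in mutants (6 lower, 4 higher, median -0.019). All 10 measured genes had higher mutant means in the endothelial (median 0.32), the meninges and fibroblast (0.82) and the choroid plexus and ependymal list (1.42). Endothelial means were 6.08 to 6.87 in normals and 6.75 to 7.06 in mutants. Those of meninges and fibroblasts were 5.12 to 5.81 in normals and 5.85 to 6.78 in mutants. For choroid plexus and ependyma, only mutants 1 and 3 were high, and mutants 2 and 4 (5.50 and 5.59) lay close to normals 1 and 2 (5.51 and 5.50). No gene of these lists passed the adjusted threshold in limma, and the part of cell content in the lower potassium channel means was not tested. The spread between animals was large relative to these changes, and the change exceeded the pooled within-group SD for 20 of the 62 genes. The 95% interval reached a median of 0.57 in log2 to either side of the change, from 0.21 for the narrowest to 2.19 for the widest. It lay between -1 and 1 for 38 genes, and for the other 24 it held changes beyond 1 in log2 in at least 1 direction. The number of animals limits this precision.

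**Figure D1:**
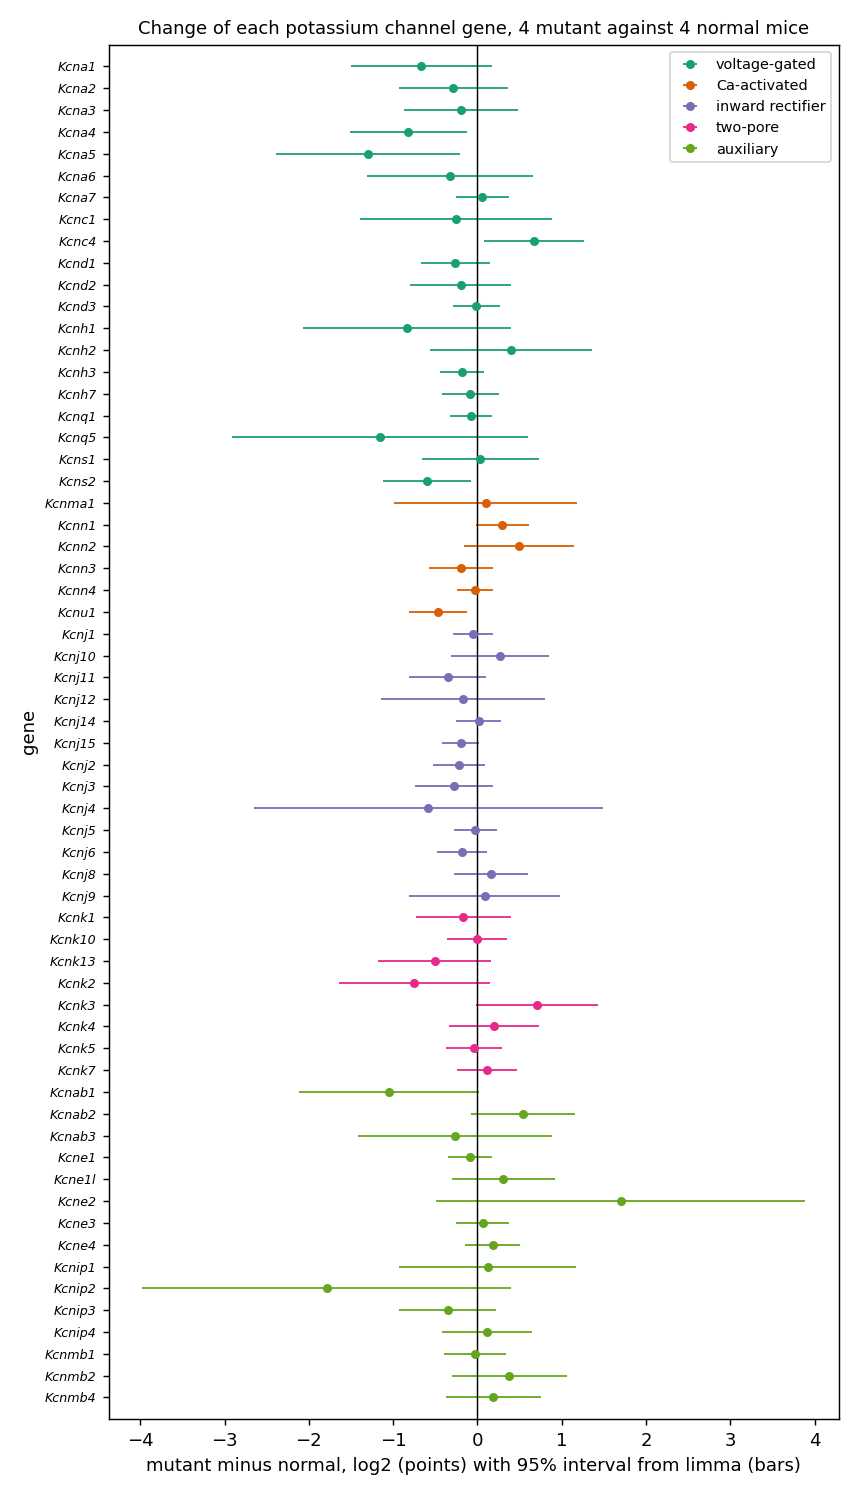
Change of each of the 62 genes, mutant minus normal in log2 (horizontal axis, points), with the 95% interval from limma (bars), coloured by channel class. Most intervals span 0, none of the genes passed the adjusted threshold, and Kcnip2 (-1.79) and Kcne2 (1.70) had the largest changes and the widest intervals. Both of these rest in part on values within the range of absent controls.

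Voltage-gated channels had lower mutant means in 16 of 20 genes, with a median change of -0.23 and 0 past the threshold. Of the 15 above the absent controls in every array, 11 were lower. The Kcna genes encode Shaker-type channels that delay or shape repolarisation in axons and terminals, and 6 of their 7 mutant means were lower. Kcna4, the subunit of a fast-inactivating A-type current, was at 7.73, 6.18, 7.12 and 7.06 in normals 1 to 4 and 5.82, 6.47, 6.34 and 6.16 in mutants 1 to 4. Its 3 highest arrays were normals 1, 3 and 4, while normal 2 lay inside the mutant range. The change was -0.82 ± 0.30 (SE, limma adjusted p = 0.685), and -0.42 without normals 1 and 3. These were its highest arrays, so leaving them out had to shrink the change. Such pairs of arrays, here and below, were chosen after the values were seen, and the changes without them test nothing.

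Kcna5, a delayed rectifier subunit, had values of 7.87, 6.29, 7.66 and 7.51 in normals 1 to 4 and 7.08, 6.09, 4.94 and 6.05 in mutants 1 to 4. Again normals 1, 3 and 4 were highest, followed by mutant 1, and mutant 3 was lowest of all. Means were 7.33 ± 0.71 in normals and 6.04 ± 0.87 in mutants (SD, n = 4 each), a change of -1.29 ± 0.48 (SE, limma adjusted p = 0.685) with a 95% interval of -2.38 to -0.20. Without normals 1 and 3 the change was -0.86. Its order over the arrays was close to that of the striatal marker mean given above, for which the 4 highest arrays were the same. The part of tissue content in this difference was not tested.

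Kcna1, whose product limits firing in axons, lay at 7.87, 8.60, 9.06 and 8.32 in normals 1 to 4 and 7.13, 7.76, 8.77 and 7.53 in mutants 1 to 4. The groups overlapped, since mutant 3 exceeded 3 of the normals, and the change was -0.66 ± 0.37 (SE, limma adjusted p = 0.843). Kcna2, the usual axonal partner of Kcna1, had a change of -0.29, Kcna3, a subunit of neurons and also of microglia and T cells, of -0.19, and Kcna6 of -0.32. The changes of Kcna3 and Kcna6 turned to 0.033 and 0.065 without normal 4, which had the highest value of both (5.96 and 5.83). For Kcna6, normal 1 (3.41) lay within the range of absent controls. Kcna7, a muscle-type subunit, ranged only from 4.85 to 5.35 and differed by 0.059.

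Kcnc channels open and close fast and support high-rate firing of interneurons. Kcnc4 was the 1 channel among the 62 with a higher mutant mean at an unadjusted p under 0.05. Values were 6.90, 8.05, 7.57 and 7.89 in normals 1 to 4 and 8.09, 8.01, 8.68 and 8.31 in mutants 1 to 4, with all mutants above 8 and normal 2 above 8 as well. The change was 0.67 ± 0.26 (SE, limma adjusted p = 0.705), its second probe set gave 0.33, and it was 0.44 without normal 1, which was lowest on both. Without normals 1 and 3 it was 0.31. Kcnc1 was at 5.19, 7.94, 7.10 and 6.62 in normals 1 to 4 and 6.43, 6.26, 6.78 and 6.36 in mutants 1 to 4, with the lowest and the highest value both in normals, and a change of -0.26 that turned to 0.15 without normal 2.

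Kcnd genes encode the somatodendritic A-type channels of pyramidal neurons. Kcnd2, the main one in hippocampus, had means of 9.97 ± 0.31 in normals and 9.77 ± 0.50 in mutants (SD, n = 4 each), a change of -0.20, and its other 2 probe sets gave -0.33 and -0.49. Mutant 1 was lowest on all 3 probe sets of Kcnd2, and without it the change was 0.029. Kcnd1 differed by -0.26 close to the floor.

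Among the Kcnh genes, relatives of the ether-a-go-go channel, Kcnh1 and Kcnh2 had mean differences of opposite sign. Kcnh1 had 5.28, 5.72, 6.61 and 6.53 in normals 1 to 4 and 5.21, 4.44, 6.76 and 4.41 in mutants 1 to 4, a range of 2.35 in which mutant 3 and normals 3 and 4 were high and mutants 2 and 4 low. Kcnh2, which carries a slow repolarising current, had 6.46, 7.98, 7.53 and 7.25 in normals 1 to 4 and 7.92, 7.97, 6.62 and 8.33 in mutants 1 to 4, highest in mutant 4, normal 2 and mutant 2. Their changes were -0.83 ± 0.54 (SE, limma adjusted p = 0.872) and 0.40 ± 0.42 (SE, limma adjusted p = 0.925). Without mutants 2 and 4 they were -0.052 and -0.037. Kcnh3, a forebrain channel, varied little (6.47 to 6.93) and differed by -0.18, and Kcnh7 by -0.084 near the floor.

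Neuronal Kcnq channels carry the M current, which neuromodulators close. Kcnq5 was at 7.43, 3.86, 6.80 and 6.75 in normals 1 to 4 and 4.77, 4.90, 6.30 and 4.22 in mutants 1 to 4, a range of 3.58 in log2. Normals 1, 3 and 4 and mutant 3 lay above 6 and the other 4 arrays below 5, so each group held both levels. The change was -1.16 ± 0.77 (SE, limma adjusted p = 0.873), and it was -0.25 without normals 1 and 3 and -1.94 without normal 2. Kcnq1, a channel of heart and epithelia, ranged from 3.69 to 3.98 with a change of -0.076 close to the floor, and mutant 2 lay within the range of absent controls.

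Kcns genes encode silent subunits that form channels only together with others. Kcns2 had 5.47, 4.76, 5.23 and 4.77 in normals 1 to 4 and 4.34, 4.98, 4.16 and 4.37 in mutants 1 to 4, a change of -0.60 ± 0.23 (SE, limma adjusted p = 0.693), with mutant 2 above 2 of the normals. Without normals 1 and 3 it was -0.30. Kcns1 differed by 0.037.

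Calcium-activated and related channels had 3 higher and 3 lower mutant means, with 0 past the threshold. Kcnma1, the large-conductance BK channel, was at 7.63, 7.70, 7.08 and 7.24 in normals 1 to 4 and 5.99, 7.76, 8.53 and 7.78 in mutants 1 to 4. Both extremes were mutants, with mutant 1 lowest and mutant 3 highest, and the change was 0.097 ± 0.48 (SE, limma adjusted p = 0.981). It ran from -0.24 without mutant 3 to 0.61 without mutant 1, and the second probe set gave -0.037.

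Kcnn genes encode small-conductance channels that produce the afterhyperpolarisation, the pause after a spike. Kcnn2, prominent in hippocampal pyramidal cells, had 8.11, 6.94, 7.11 and 7.31 in normals 1 to 4 and 7.36, 8.27, 8.07 and 7.74 in mutants 1 to 4. Normal 1 overlapped the mutants and the other 3 normals lay below all of them, and the change was 0.49 ± 0.29 (SE, limma adjusted p = 0.846). Kcnn1 had 5.37, 5.59, 5.53 and 5.44 in normals 1 to 4 and 5.59, 5.57, 6.07 and 5.87 in mutants 1 to 4, a change of 0.30 ± 0.14 (SE, limma adjusted p = 0.776), while its other probe set gave -0.021. Kcnn3 differed by -0.19. Kcnn4, an intermediate-conductance channel of microglia and blood cells, had the narrowest range of all 62 genes (4.51 to 4.65) and differed by -0.029. Its other probe set (2.41 to 3.13) lay within the range of absent controls in every array. The microglia and macrophage marker mean (14 of 14 genes, 13 above the absent controls in every array) was 7.09 to 7.85 in normals and 8.52 to 8.79 in mutants in the same arrays. By gene the list was split. Mutant means were higher for 10, with Mpeg1, Clec7a and Cd68 the 3 past the threshold. They were lower for 4, namely Csf1r, Itgam, Cx3cr1 and P2ry12.

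Kcnu1, an alkalinisation-activated relative of Kcnma1 known from sperm, was 1 of the 2 genes whose groups did not overlap. Its values were 5.45, 5.58, 5.53 and 5.77 in normals 1 to 4 and 5.30, 4.84, 5.38 and 4.96 in mutants 1 to 4, above the absent controls throughout. The highest mutant, 5.38, lay below the lowest normal, 5.45 (two-sided exact permutation p = 0.0286, the smallest this design can give). Every gene whose groups do not overlap has this p here, so it adds nothing to the lack of overlap. The change of -0.47 ± 0.15 (SE, limma adjusted p = 0.601) did not pass over all genes, and it was -0.25 without mutants 2 and 4.

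Of the 9 inward rectifiers above the absent controls in every array, 6 had lower mutant means (median change -0.17), with 0 past the threshold. The other 4 of the 13 were above them in no array. Kcnj10, the astrocytic channel that takes up extracellular potassium, was at 10.16, 10.26, 9.75 and 9.65 in normals 1 to 4 and 10.11, 10.72, 9.58 and 10.49 in mutants 1 to 4. It was highest in mutants 2 and 4 and normal 2, and the groups overlapped, with means of 9.96 ± 0.30 in normals and 10.22 ± 0.50 in mutants (SD, n = 4 each). The change was 0.27 ± 0.26 (SE, limma adjusted p = 0.913), and -0.11 without mutants 2 and 4. Astrocyte marker means (12 of 12 genes, all above the absent controls) were 9.42, 9.24, 8.99 and 9.10 in normals 1 to 4 in these arrays. In mutants 1 to 4 they were 9.63, 9.74, 9.57 and 9.76, each mutant above each normal with Gfap included. Of these 12 genes, 11 had higher mutant means and 1 a lower one (median change 0.38). The 1 past the threshold was Gfap, whose change of 2.27 was the largest of the list and enters these means. The separation of the groups therefore cannot be read as one of the whole list. Kcnj8, the channel of pericytes and smooth muscle that responds to ATP, differed by 0.16 and by -0.012 without normal 4, which was lowest (5.04).

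Kcnj3, Kcnj6 and Kcnj9 encode G-protein-gated channels that mediate slow inhibition by transmitters. Kcnj3 had 5.67, 5.93, 6.52 and 6.11 in normals 1 to 4 and 5.54, 6.03, 5.97 and 5.58 in mutants 1 to 4, a change of -0.28. Kcnj6 differed by -0.19. Kcnj9 was at 4.97, 6.45, 6.54 and 6.86 in normals 1 to 4 and 5.78, 6.28, 6.66 and 6.45 in mutants 1 to 4, lowest in normal 1. Its change of 0.086 was -0.32 without that array and -0.036 without mutant 3, and a second probe set above the absent controls gave -0.10.

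Kcnj4, a strong rectifier of forebrain neurons, fell into a high and a low level that did not follow genotype. Its values were 5.41, 5.35, 8.47 and 8.09 in normals 1 to 4 and 5.90, 5.31, 8.25 and 5.53 in mutants 1 to 4. Normals 3 and 4 and mutant 3 lay above 8 and the other 5 arrays below 6, a span of 3.16 in log2. The change was -0.58 ± 0.91 (SE, limma adjusted p = 0.947), and it was 0.25 without mutants 2 and 4. Leaving out 1 animal, it ran from -1.25 without mutant 3 to -0.034 without normal 3. The 3 high arrays were also the 3 highest for the mean of the cortical and general excitatory markers, and the part of tissue content was not tested.

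Kcnj11, the pore of the ATP-sensitive channel of neurons, differed by -0.35, and Kcnj12, another strong rectifier, by -0.17 with a range of 4.69 to 6.58. Kcnj1, the renal channel, ranged from 3.98 to 4.31. Kcnj15, whose groups did not overlap, ranged from 2.54 to 2.90 and so lay within the absent controls in every array. Its difference of -0.20 is not a level that can be read as expression.

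Two-pore-domain channels had 5 lower and 3 higher mutant means, with 0 past the threshold. Of the 6 above the absent controls in every array, 3 were lower. Kcnk2, a leak channel opened by lipids and stretch, was at 8.99, 7.23, 8.71 and 8.49 in normals 1 to 4 and 7.70, 7.13, 8.24 and 7.35 in mutants 1 to 4. Normals 1, 3 and 4 were highest, then mutant 3, and normal 2 lay among the mutants. The change was -0.75 ± 0.39 (SE, limma adjusted p = 0.834), and -0.26 without normals 1 and 3. Kcnk3, an acid-sensitive leak channel, had 6.06, 6.96, 6.01 and 6.06 in normals 1 to 4 and 6.50, 7.34, 6.50 and 7.59 in mutants 1 to 4, with mutants 2 and 4 and normal 2 highest and the other 5 arrays between 6.01 and 6.50. The change was 0.71 ± 0.32 (SE, limma adjusted p = 0.773) on this probe set, while a second one above the absent controls in every array gave -0.064. It was 0.23 without mutants 2 and 4.

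Kcnk1, a weakly conducting channel abundant in astrocytes and neurons, differed by -0.17, and by 0.069 without normal 1. Kcnk13, whose channel sets the resting potential of microglia, was at 7.18, 5.95, 6.15 and 6.35 in normals 1 to 4 and 5.77, 6.13, 5.41 and 6.30 in mutants 1 to 4. Its mutant mean was the lower one, with a change of -0.51 ± 0.29 (SE, limma adjusted p = 0.845) and -0.25 without normal 1, which was highest. Kcnk4, Kcnk5, Kcnk7 and Kcnk10 differed by -0.037 to 0.20, and Kcnk5 and Kcnk10 lay within the range of absent controls in some arrays.

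Auxiliary subunits had 9 higher and 6 lower mutant means, a median change of 0.11, and 0 past the threshold. Of the 10 above the absent controls in every array, 7 were higher. Kcnab genes encode beta subunits of Kcna channels, and some of these subunits speed inactivation. Kcnab1 was at 11.34, 9.04, 10.68 and 10.14 in normals 1 to 4 and 8.59, 9.49, 9.79 and 9.14 in mutants 1 to 4, with normals 1, 3 and 4 highest, and a change of -1.05 ± 0.47 (SE, limma adjusted p = 0.773). It was -0.34 without normals 1 and 3. Its second probe set read 5.74, 7.44, 9.63 and 8.85 in normals 1 to 4 and 6.80, 6.62, 7.04 and 6.12 in mutants 1 to 4, a change of -1.27.

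Kcnab2 gave changes of opposite sign on its 2 probe sets. The one used read 9.85, 9.90, 9.89 and 9.11 in normals 1 to 4 and 9.69, 10.15, 10.85 and 10.22 in mutants 1 to 4, a change of 0.54 ± 0.27 (SE, limma adjusted p = 0.805), with normal 4 apart from the other normals. The other read 5.02, 5.43, 7.16 and 5.71 in normals 1 to 4 and 5.54, 4.84, 4.83 and 5.04 in mutants 1 to 4, a change of -0.77, with normal 3 highest. Kcnab3, on the probe set used, differed by -0.27 and spanned 4.65 to 7.39, both ends in normals. The sign turned without normal 3 (0.14) and on its other probe set (0.16).

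Kcnip genes encode calcium sensors that bind Kcnd channels and raise A-type current. Kcnip2 had 3.62, 4.68, 8.12 and 7.20 in normals 1 to 4 and 5.38, 3.40, 4.07 and 3.61 in mutants 1 to 4. Normals 3 and 4 were far above the rest, mutant 1 came next, and normal 1 and mutants 2 and 4 lay within the range of absent controls. Its highest value thus lay at least 4.40 in log2 above its lowest. The fitted change, which includes such values and is no exact size, was -1.79 ± 0.96 (SE, limma adjusted p = 0.84) with a 95% interval of -3.98 to 0.40, and it was -1.05 without normal 3. A second probe set stayed between 4.49 and 4.91 and differed by -0.11. Kcnip3, which also acts in the nucleus as a repressor, differed by -0.35 on the probe set used and by -0.77 on the other. Kcnip1 (0.12) and Kcnip4 (0.11) had probe sets of both signs.

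Kcne genes encode small single-pass subunits. Kcne2, an accessory subunit known from choroid plexus epithelium, was at 3.79, 3.47, 3.13 and 2.69 in normals 1 to 4 and 7.86, 3.42, 5.60 and 3.0 in mutants 1 to 4. Mutants 1 and 3 lay at 7.86 and 5.60, while mutants 2 and 4 lay within the range of absent controls, as did normals 2 to 4. Its highest value lay at least 4.14 above its lowest. The fitted change, again no exact size, was 1.70 ± 0.96 (SE, limma adjusted p = 0.843), 0.74 without mutant 1, and -0.057 without mutants 1 and 3. Those were its highest arrays, so leaving them out had to lower the change. The choroid plexus and ependymal mean was 5.51, 5.50, 4.88 and 4.70 in normals 1 to 4 and 7.76, 5.50, 6.99 and 5.59 in mutants 1 to 4, with 8 of its 10 measured genes above the absent controls in every array. Mutants 1 and 3 were thus highest for both, and the part of choroid plexus content in the Kcne2 difference was not tested. Kcne4 (0.18) and Kcne1l, also known as Kcne5 (0.31), differed less.

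Kcnmb genes encode beta subunits of the BK channel. Kcnmb4, the neuronal one, was at 8.53, 8.70, 8.97 and 8.47 in normals 1 to 4 and 8.13, 9.02, 9.33 and 8.94 in mutants 1 to 4 and differed by 0.19, with mutant 1 lowest and mutant 3 highest, the same arrays that held the extremes of Kcnma1. Kcnmb2 differed by 0.38 and its second probe set by 0.10. Kcnmb1, a smooth muscle subunit, differed by -0.026 close to the floor, and mutant 3 (3.67) lay within the range of absent controls.

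**Figure D2:**
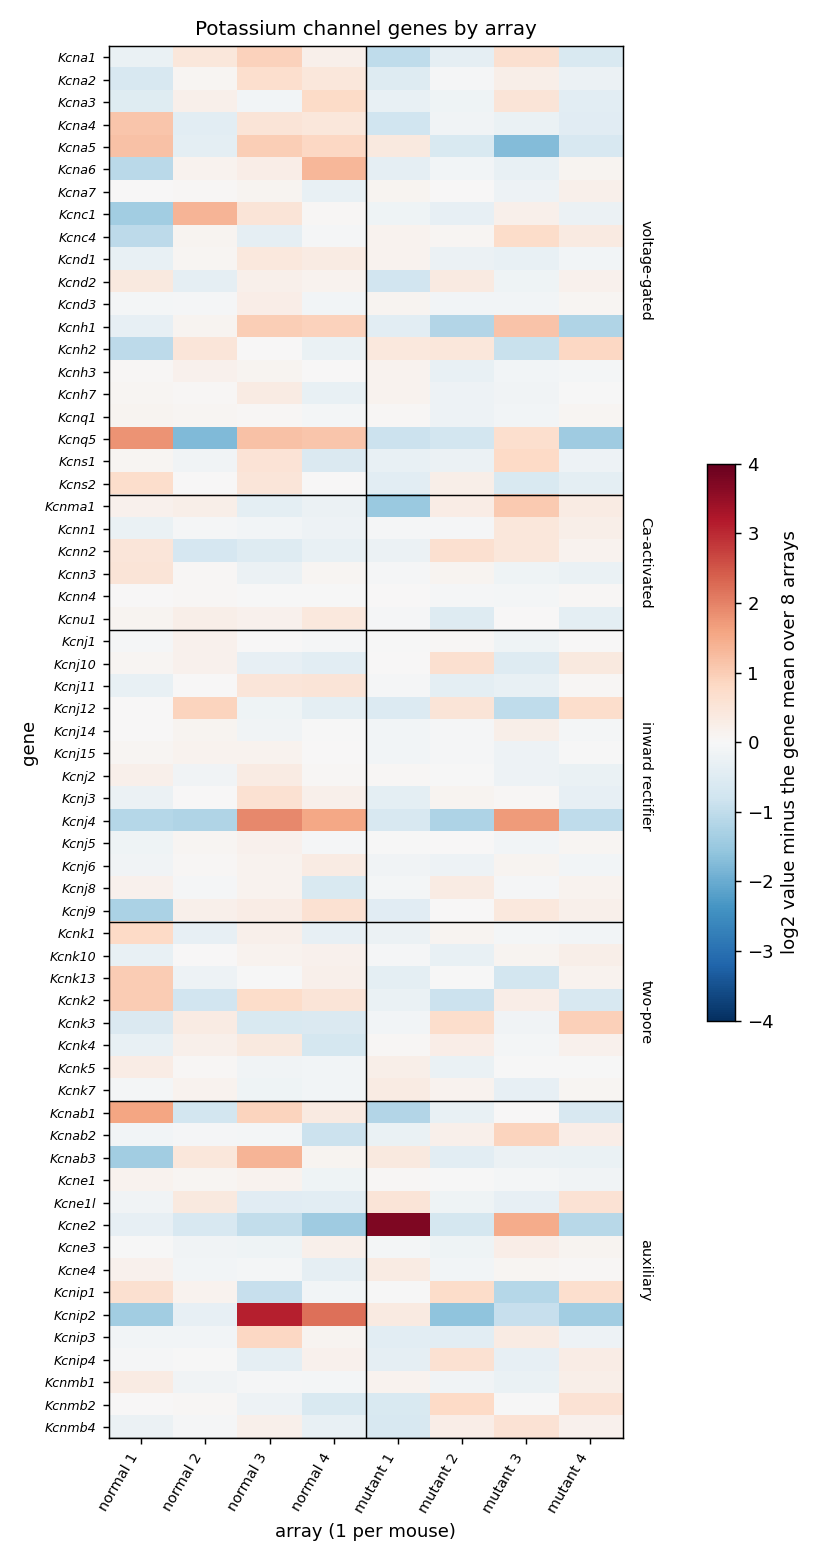
Log2 value of each of the 62 genes (rows, grouped by channel class) in each array (columns, 4 normal then 4 mutant mice), minus the gene's mean over the 8 arrays. Red is above and blue below that mean. The strongest colours follow single arrays or sets of arrays within or across groups, such as Kcne2 in mutants 1 and 3, Kcnip2 in normals 3 and 4, and Kcnj4 in normals 3 and 4 and mutant 3.

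Variation between animals was wider among these genes than among all genes. The range over the 8 arrays had a median of 1.15 in log2, beside 0.75 for all genes. It exceeded 2 in 11 of the 62 genes (17.7%), against 6.59% of all genes. These were Kcne2, Kcnip2, Kcnq5, Kcnj4, Kcna5, Kcnc1, Kcnab1, Kcnab3, Kcnma1, Kcna6 and Kcnh1. No test was made of this difference.

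Some of the genes shared their highest arrays in a few sets, which were picked after the values were seen and carry no test. Normals 1, 3 and 4 were the 3 highest arrays for 5 of the 62 genes (8.06%), Kcna4, Kcna5, Kcnab1, Kcnk2 and Kcnq5, against 3.99% of all genes. Normals 3 and 4 with mutant 3 were highest for 6 (9.68%), Kcna2, Kcnh1, Kcnip3, Kcnj4, Kcnj6 and Kcnj9, against 3.70%. Normal 2 with mutants 2 and 4 were highest for 6, Kcnh2, Kcnj1, Kcnj10, Kcnj12, Kcnk3 and Kcnmb2, against 3.03%. Mutants 1 and 3 were the 2 highest arrays for 1 gene, Kcne2 (1.61%), against 2.71%. The first 3 sets are those in which the striatal, the excitatory and the thalamic marker means, respectively, were highest. Membership in a set holds for the probe set used. Kcnab1, Kcnip3, Kcnj9, Kcnk3 and Kcnmb2 have another probe set above the absent controls in every array, and none kept its set there. On that of Kcnab1, normal 1 was the lowest of the 8 arrays (5.74).

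**Figure D3:**
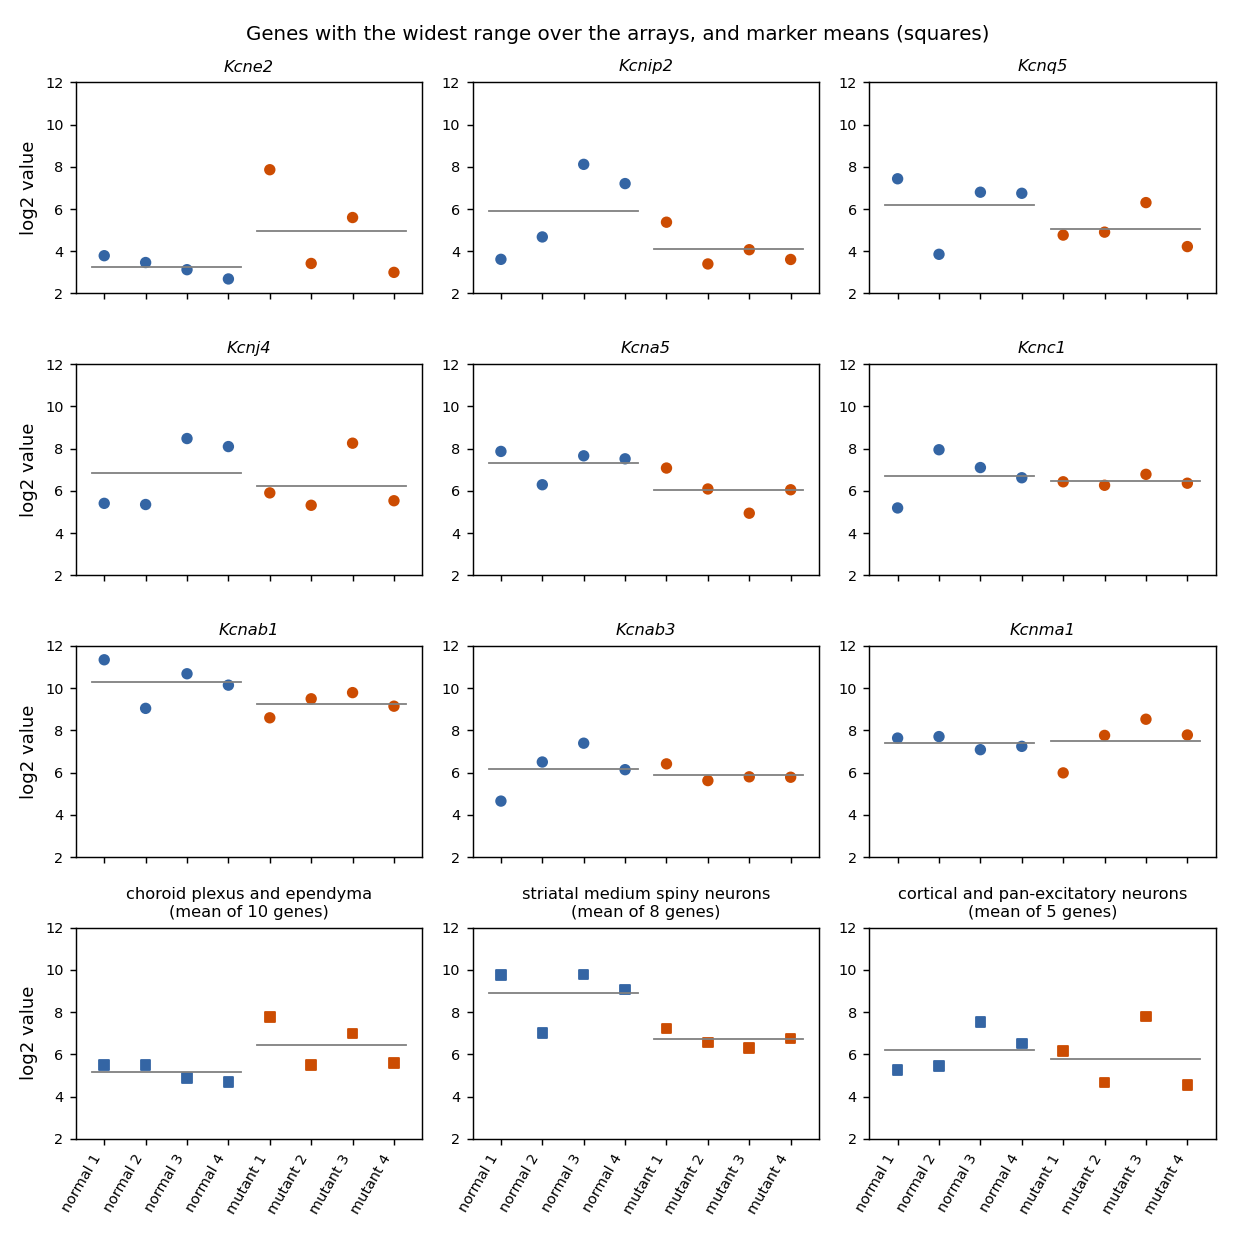
Log2 values by array (horizontal axis, normal mice in blue, mutants in orange, grey lines are group means) for the 9 genes with the widest range over arrays, and means of 3 marker lists (squares, lower row). Kcne2 peaks in mutants 1 and 3 like the choroid plexus list, Kcnj4 in normals 3 and 4 and mutant 3 like the excitatory list, and Kcna5 in normals 1, 3 and 4 like the striatal list.

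Promoter sequences are shown for Kcnj4, Kcnip2, Kcna5 and Kcne2, 4 of the 5 genes with the widest ranges, because their values moved with sets of arrays. Each runs 5′ to 3′ on the gene's strand, from 250 bases before to 50 bases after a transcript start in RefSeq (GRCm38.p6). The Kcnj4 sequence is chr15:79505192-79505491 on the minus strand, Kcnip2 chr19:45816014-45816313 on the minus strand, Kcna5 chr6:126535506-126535805 on the minus strand, and Kcne2 chr16:92292139-92292438 on the plus strand. Kcne2 has a second start in the table, which is not printed. Capitals mark GGGCGG (the GC box), TATAAA (the TATA box) and TGACG (a core of the cyclic AMP response element), each searched on both strands.
Kcnj4: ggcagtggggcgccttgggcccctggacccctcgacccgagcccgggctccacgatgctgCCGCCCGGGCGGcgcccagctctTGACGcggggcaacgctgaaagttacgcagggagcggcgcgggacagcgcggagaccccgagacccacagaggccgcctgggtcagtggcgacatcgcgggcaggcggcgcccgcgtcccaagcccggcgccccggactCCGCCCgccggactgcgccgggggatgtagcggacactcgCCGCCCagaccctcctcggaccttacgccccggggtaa
Kcnip2: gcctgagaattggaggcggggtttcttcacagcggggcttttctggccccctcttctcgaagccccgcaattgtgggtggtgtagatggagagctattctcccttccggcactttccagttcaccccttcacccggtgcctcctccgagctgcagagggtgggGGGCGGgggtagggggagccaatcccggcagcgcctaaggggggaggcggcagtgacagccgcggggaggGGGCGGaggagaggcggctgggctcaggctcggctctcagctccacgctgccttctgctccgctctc
Kcna5: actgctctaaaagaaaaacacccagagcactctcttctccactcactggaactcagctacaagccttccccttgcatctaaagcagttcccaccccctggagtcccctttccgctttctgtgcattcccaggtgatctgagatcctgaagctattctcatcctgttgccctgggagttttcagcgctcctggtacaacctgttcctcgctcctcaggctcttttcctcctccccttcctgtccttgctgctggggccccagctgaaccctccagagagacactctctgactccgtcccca
Kcne2: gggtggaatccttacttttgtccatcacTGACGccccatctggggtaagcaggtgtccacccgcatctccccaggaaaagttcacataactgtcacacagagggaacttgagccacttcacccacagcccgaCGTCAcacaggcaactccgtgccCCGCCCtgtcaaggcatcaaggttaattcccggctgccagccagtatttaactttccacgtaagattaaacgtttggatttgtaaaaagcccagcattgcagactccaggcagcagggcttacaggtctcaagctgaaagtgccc

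The Kcnj4 window holds 41 CpG dinucleotides and 4 GGGCGG matches and 1 TGACG. The Kcnip2 window holds 18 CpG and 2 GGGCGG matches. By contrast, the Kcna5 window has 4 CpG and none of the 3 motifs, and that of Kcne2 has 9 CpG, 1 GGGCGG and 2 TGACG matches. Of the 68 windows available for 50 of the 62 genes, 34 (50%) held GGGCGG, against 35.7% of all 32851 windows. TATAAA was found in 3 (4.41%), against 13.6% of all, and TGACG in 11 (16.2%), against 20.8%. The median GC content was 59.0% over the 68 windows and 52.7% over all. A match describes letters and shows no binding.

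Probe sets of the same gene often did not move alike. Of the 14 genes with at least 2 probe sets above the absent controls in every array, 8 had changes of both signs. For Kcnab2 and Kcnk3 these differed by more than 0.5. In normal 1, probe sets of a gene could lie on opposite sides of the other arrays. On the 2 Kcnab1 probe sets it lay 1.79 above and 1.77 below the mean of the other 7 arrays. For Kcnk1 it lay 0.91 above and 0.52 below. Its RNA quality value of 3.58 stands beside these differences, and the part of RNA quality in them was not tested. Without normal 1, 0 of the 62 genes passed in limma, with a smallest adjusted p of 0.419.

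**Figure D4:**
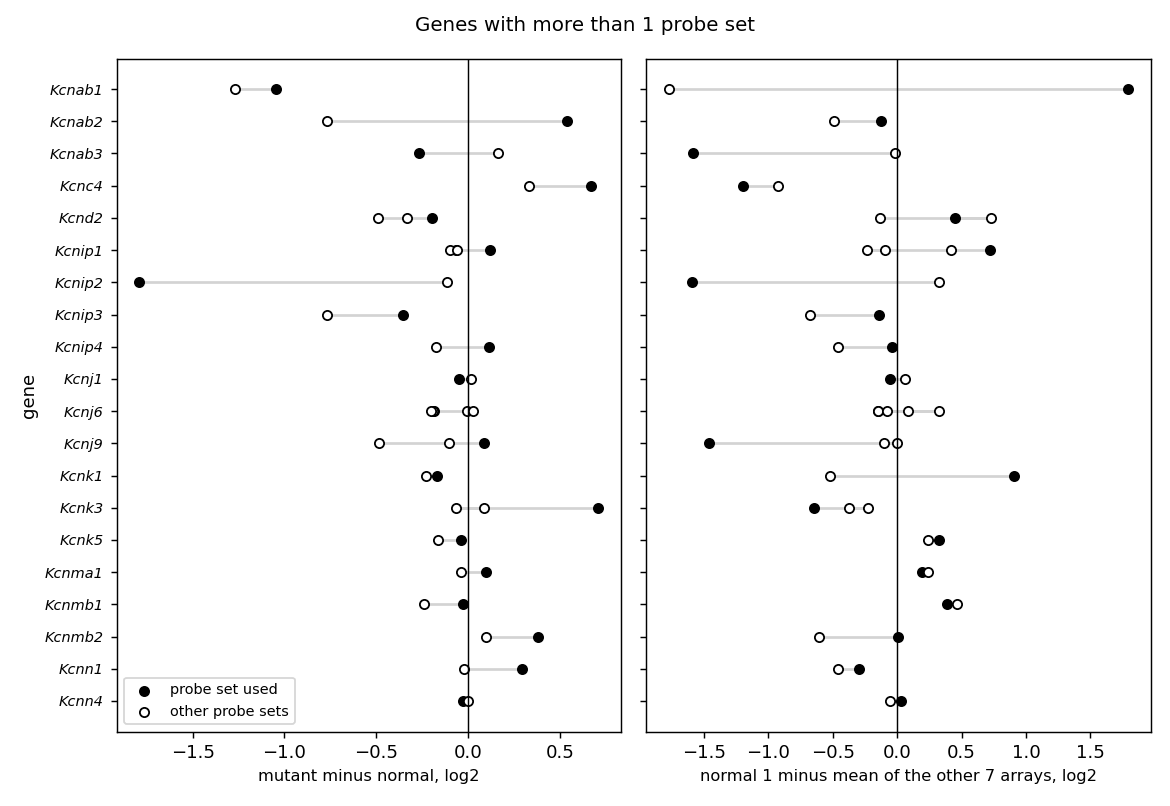
Genes with more than 1 probe set (rows), with the change between mutants and normals in log2 (left) and the distance of normal 1 from the mean of the other 7 arrays in log2 (right) for each probe set. Filled points are the probe sets used, and some open points are probe sets within the range of absent controls. The 2 Kcnab1 points lie close on the left (-1.05 and -1.27) and far apart on the right (1.79 and -1.77).

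No potassium channel gene passed between the sexes in limma with genotype as a term. Of the 62 genes, 0 passed an adjusted p under 0.05, beside 4 of all genes (0.0323%). At an unadjusted p under 0.05, 4 of the 62 (6.45%) passed, against 1.95% of all genes. The difference furthest from 0 among these was in Kcna1, with means of 8.55 in males and 7.71 in females (0.83 ± 0.25 SE, limma adjusted p = 1). The BK subunit genes Kcnmb4 (0.49 higher in males) and Kcnmb1 (-0.32, males minus females) and Kcnj3 (0.39) were the others.

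Genes outside the Kcn symbols that handle potassium or hold its channels in place also had 0 members past the threshold in any of 5 lists. Among 6 measured Na,K-ATPase and regulator genes, 5 mutant means were higher (median 0.50), led by Atp1b2, the astrocytic beta subunit (0.60 ± 0.24 SE, limma adjusted p = 0.717), and Fxyd1 (1.14). Of 6 cation-chloride cotransporters, 4 were higher (median 0.20), with Slc12a4 at 0.67 and Slc12a7 at 0.45. Of 13 clustering and anchoring genes, 9 were lower (median -0.16). Dlg2, a scaffold that clusters Kcna and Kcnj channels, went from 5.04 ± 0.69 in normals to 3.80 ± 0.35 in mutants (SD, n = 4 each; limma adjusted p = 0.430). Its values in normals were 5.56, 4.03, 5.22 and 5.36, high in normals 1, 3 and 4, like Kcna4 and, on the probe set used, Kcnab1. For Dlg2, mutants 1 and 2 lay within the range of absent controls. Its mutant mean includes such values, so the difference is no exact size. The second smallest p was that of Dtna, of the dystrophin complex (-0.53). Of 3 genes of the Hcn channels and their partner, 1 was higher (median -0.094), with Pex5l at -0.42 and Hcn3 at 0.30. Of 7 non-Kcn partners, 4 were higher (median 0.17), with Abcc8, the sulfonylurea receptor that pairs with Kcnj11, at 0.36 and Dpp6, a partner of Kcnd channels, at 0.27.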

How the data were processed

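RNA from the right hippocampus was amplified to biotinylated aRNA and hybridised to 1 Affymetrix array per mouse. The deposited log2 values per probe set are on the authors' RMA scale, per the submitters' processing notes, which also name GCOS 1.4. Scanner files were not used here. Genes were named from GEO's platform annotation, and all 62 Kcn genes matched the RefSeq table (GRCm38.p6). Of 22690 probe sets, 20380 had 1 gene symbol, 691 several and 1555 none, and 64 were controls. No gene was removed for low values. Of the 62 probe sets used, 13 have names that mark possible cross-hybridisation.

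Mutants and normals, and the sexes with genotype as a term, were set against each other by lmFit and eBayes (limma 3.58.1, R 4.3.3), with p adjusted by Benjamini-Hochberg over 12393 genes with a threshold of 0.05. Single genes were also compared by a two-sided exact permutation test over 70 arrangements. The fit was checked on simulated data. Arrays give no counts, so their number limits the precision. Labels give separate animals, but no replicate numbers. Genes, lists and sets were chosen with earlier results of these data known. Named with values were the genes with the smallest p, those not overlapping, the widest ranges, disagreeing probe sets, 1 per subfamily and those of known cell types, 41 in all, and others by change or range. Alternatives covered probe sets, filters, scaling, variance model, covariates and leaving out animals. Leaving out pairs of arrays (normals 1 and 3, mutants 1 and 3, mutants 2 and 4) was chosen after seeing the data, as was a fit with pairs of animals. Where such a pair held the values of its group furthest from the other group, the change had to shrink.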

Additional observations from a re-analysis of the deposited data

Results flagged for a closer look

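In 2 of 82 groups tested (41 genes in normal and mutant mice), 1 array lay far from the other 3 of its group. Chance flags about 1 in 20 such groups. For Kcnab2, a beta subunit of Kcna channels, normal 4 was at 9.11 while the other normals lay between 9.85 and 9.90. For the leak channel gene Kcnk3, normal 2 was at 6.96 while the other normals lay between 6.01 and 6.06. Normal 2 was also the normal array with the highest thalamic and habenular marker mean (9.38), and the part of that in the Kcnk3 value was not tested.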

How the results depend on the processing

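The count of 0 Kcn genes past the threshold held in all 24 alternatives for mutant against normal mice (smallest adjusted p 0.122, without normal 2, to 1.00) and in all 17 for the sexes (smallest 0.942). At an unadjusted p under 0.05 the count was 5 in the main fit (8.06%, against 6.53% of all genes). It ran from 1 without normal 3 to 9 without normal 1, normal 2 or mutant 1 in turn. It was 3 without normal 4, mutant 4, or normals 1 and 3. Without mutants 1 and 3 it was 8, without mutants 2 and 4 it was 2, and with array weights 17. The share of all genes was not counted in these alternatives, so these counts cannot be read as particular to the Kcn genes. The median change stayed below 0 in its 22 alternatives, from -0.17 without the dimmest 40% of genes to -0.041 without normals 1 and 3, and from -0.096 to -0.047 when 1 animal was left out. Single genes turned sign as follows, and the cause was not tested. The pairs of arrays left out were chosen after seeing the data, so a sign that turned without them tests nothing. With the mean of all probe sets, Kcnab2 was at -0.11, Kcnip4 at -0.030 and Kcnj9 at -0.17. Without probe sets of possible cross-hybridisation, Kcnab3 was at 0.16 and Kcnma1 at -0.037. With array weights, Kcnj9 was at -0.053 and Kcnn4 at 0.0022. Leaving out 1 animal, changes ran from -0.32 to 0.30 for Kcnj9, -0.31 to 0.069 for Kcnk1, -0.76 to 0.15 for Kcnc1, -0.77 to 0.14 for Kcnab3, -0.19 to 0.010 for Kcnh7, -0.24 to 0.61 for Kcnma1, -0.40 to 0.033 for Kcna3, -0.74 to 0.065 for Kcna6, -0.012 to 0.25 for Kcnj8, -0.36 to 0.029 for Kcnd2 and -0.068 to 0.25 for Kcnip4. In these, the single arrays that turned a sign were normal 1 (Kcnj9 -0.32, Kcnk1 0.069), normal 2 (Kcnc1 0.15), normal 3 (Kcnab3 0.14, Kcnh7 0.010, Kcnma1 -0.013), normal 4 (Kcna3 0.033, Kcna6 0.065, Kcnj8 -0.012), mutant 1 (Kcnd2 0.029), mutant 2 (Kcnip4 -0.068) and mutant 3 (Kcnj9 -0.036, Kcnma1 -0.24). Without normals 1 and 3, Kcnd2 was at 0.0062, Kcnh7 at 0.070, Kcnip4 at -0.028, Kcnj9 at -0.36 and Kcnk1 at 0.24. Without mutants 1 and 3, Kcnd2 was at 0.17 and Kcne2 at -0.057. Without mutants 2 and 4, Kcna3 was at 0.0074, Kcnh2 at -0.037, Kcnip4 at -0.28, Kcnj10 at -0.11, Kcnj4 at 0.25, Kcnma1 at -0.16 and Kcnmb2 at -0.12. The labels give no replicate numbers and name no litter, but animals numbered alike here share a sex and have neighbouring animal numbers. Over all genes, the deviations of such pairs from their group means correlated at -0.24, 0.063, 0.39 and -0.15, so they do not deviate together in every pair. With these pairs as a replicate block, chosen after seeing the data, 0 Kcn genes passed (smallest adjusted p 0.466, Kcna1). At an unadjusted p under 0.05, 7 did, and the share of all genes was not counted here either. Scanner files were not used, so background correction was not varied, and 7 genes within the range of absent controls carry no level.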
